A study of Mus musculus with 369 samples.

Results

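The 42 genes described here encode the machinery that copies DNA and the genes that accompany it in S phase, the part of the cell cycle in which the genome is duplicated. They were chosen by symbol for their known roles, with earlier results of these data known. All 42 were found among the 23337 genes of the count table. They fall into 9 roles: 3 genes of helicase loading and origin licensing, 6 of the MCM helicase, 4 of helicase activation, 7 of the DNA polymerases and primase, and 5 of the sliding clamp, its loader and single-strand binding. The remaining members are 2 genes of flap removal and ligation, 5 of nucleotide supply, 5 of chromatin and histone supply, and 5 of the control of the step from G1 into S phase. The values below say how many microglia carried several of these RNAs at once, and at what level.

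Microglia, the macrophages that live in brain tissue, were taken from whole brains of male C57BL6J mice at postnatal day 7 and were either wild type or Trem2 knockout. Trem2 is a lipid-sensing receptor on the microglial surface. Within each genotype, cells came either from the CD45lowCD11b+ gate alone (called unselected) or from the same gate with surface Gpnmb and Clec7a also required (called gated). The RNA of each cell was read by Smart-seq2, which amplifies full-length transcripts without molecular identifiers. After the submitters' quality criteria, 78 of 90 unselected and 90 of 93 gated wild-type cells remained, as did 90 of 93 unselected and 76 of 93 gated knockout cells, 334 in all. Runs of 4 values below give wild-type cells first, unselected before gated, and then knockout cells likewise. Each group filled 1 plate and no animal is named, so each group is 1 sample: nothing below has a replicate check, no p-value is given, and an effect of the plate cannot be told apart from one of genotype or gate. The sources used here do not give the number of mice behind a plate or the design of the knockout allele.

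Before S phase, origin recognition proteins with Cdc6 and Cdt1 load the ring-shaped MCM helicase onto DNA, a step called licensing. Cdc45 and the GINS complex then switch the helicase on, primase and the DNA polymerases copy both strands behind it, and the Pcna ring holds the polymerases on the template. E2F transcription factors drive many of these genes late in G1, and microglia divide in the early postnatal brain, when the population expands.

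Promoters of several members are printed here because E2F factors drive many genes of this kind and the members reappear in every comparison. RefSeq promoters (build GRCm38.p6) were matched for 34 of the 42 members, and the 250 bases before the start were searched on both strands for the E2F motif TTTNNCGC. It was found in 9 of the 34 (26.5%), namely Orc1, Cdc6, Mcm5, Mcm6, Mcm7, Pola1, Rfc3, Uhrf1 and Hells. The same letters stood in 8 of 41 promoters of other replication genes (19.5%), in 2 of 24 of G2/M genes (8.33%) and in 1186 of 27025 of all genes (4.39%). The motif CCAAT, searched likewise, was in 20 of 34 members (58.8%), 19 of 24 G2/M genes (79.2%) and 34.5% of all genes. TTTGAA, the CHR element of late cell cycle promoters, was in 3 of 34 members (8.82%), 8 of 24 G2/M genes (33.3%) and 16.3% of all genes. The windows below belong to the 6 motif-holding members with the highest mean level per kilobase. They run 5′ to 3′ on the gene's strand, and capitals mark the E2F letters, read on either strand.
Mcm6: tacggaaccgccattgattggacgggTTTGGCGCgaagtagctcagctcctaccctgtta
Mcm5: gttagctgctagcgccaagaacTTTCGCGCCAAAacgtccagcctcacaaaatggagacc
Mcm7: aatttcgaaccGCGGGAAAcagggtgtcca
Uhrf1: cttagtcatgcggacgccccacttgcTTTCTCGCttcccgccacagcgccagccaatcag
Rfc3: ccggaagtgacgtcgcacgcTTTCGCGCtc
Pola1: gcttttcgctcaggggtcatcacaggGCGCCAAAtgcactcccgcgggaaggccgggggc
The Mcm6 window lies at chr1:128359719-128359778 on the minus strand. It holds the nearest of 3 matches in the 250 bases, 39 bases before the start. The Mcm5 window, chr8:75109334-75109393 on the plus strand, holds 2 overlapping matches, 141 bases before the start. Uhrf1 is shown at chr17:56303255-56303314 (plus strand, 48 bases before the start) and Pola1 at chrX:93632260-93632319 (minus strand, 130 bases before). Mcm7 (chr5:138172030-138172059, minus strand) and Rfc3 (chr5:151651209-151651238, minus strand) are shown as 30 bases, because GENCODE gene models place exons there. These are exons of Ap4m1 and Mcm7 in the first window and of Rfc3 itself in the second. A match describes the letters in these windows and not a site that is bound.

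Depth and cell state differed between the plates, and these values belong beside all that follows. Passing cells held 157653 to 1051282 gene counts, with group medians of 494746 to 697689. The median cell had 2607.5 (unselected) and 3162.5 (gated) detected genes in the wild type, and 2184 and 3995 in the knockout. Gene counts per count of added spike-in RNA, a measure of how much RNA a cell gave, had medians of 24.9, 39.8, 18.1 and 53.7 in the same order. Trem2 was at 1115, 1604, 229 and 413 CPM, so it was lower in both knockout groups and not absent. At least 3 of 9 microglia markers were detected in all but 1 of the 334 cells; the exception is a knockout unselected cell with 3 members detected. Summed border macrophage markers came to 353, 1001, 452 and 660 CPM, and 1, 17, 1 and 19 cells had at least 3 of these 10 markers, so both gated plates held more of them. Their part in the results below was measured only by leaving those cells out. Summed markers of monocytes (0.856 to 9.98 CPM) and of neural progenitors (11.8 to 31 CPM, with 5 or 6 of 7 markers at 0) were low in every group.

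How many microglia carried the replication genes together was asked first. Wild-type unselected cells had the most: 39 of 78 (50.0%, exact 95% interval 38.5 to 61.5%) had 10 or more of the 42 members detected. Among wild-type gated cells it was 16 of 90 (17.8%, 10.5 to 27.3%), among knockout unselected cells 23 of 90 (25.6%, 16.9 to 35.8%), and among knockout gated cells 31 of 76 (40.8%, 29.6 to 52.7%). At these settings the gate went with a lower share in wild-type cells and a higher one in knockout cells. The knockout difference was small when 3 counts were required for detection (23.3% unselected and 26.3% gated). Detection means at least 1 count after each cell was thinned to 100000 gene counts, and the intervals cover counting error only, not differences between mice or sorts. Without thinning the shares were 57.7%, 24.4%, 33.3% and 46.1%, which keeps their order.

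The count of members per cell formed a continuous range, so 10 or more is a stretch of a scale and not a cell type. The median wild-type cell had 9 members detected without and 3 with the further gate, and the median knockout cell 3 and 6.5. The highest cells had 30, 20, 35 and 40 members, the last a knockout gated cell with nearly the whole set. Cells with 8 or 9 members numbered 5, 2, 5 and 5, and cells with 10 or 11 numbered 7, 8, 3 and 3. Of the 16 wild-type gated cells past the threshold, 8 were therefore at 10 or 11 members. At 15 or more members the groups had 27, 3, 17 and 23 cells, and at 20 or more 18, 1, 8 and 16. Cells with none of the 42 numbered 6, 7, 14 and 2.

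**Figure D1:**
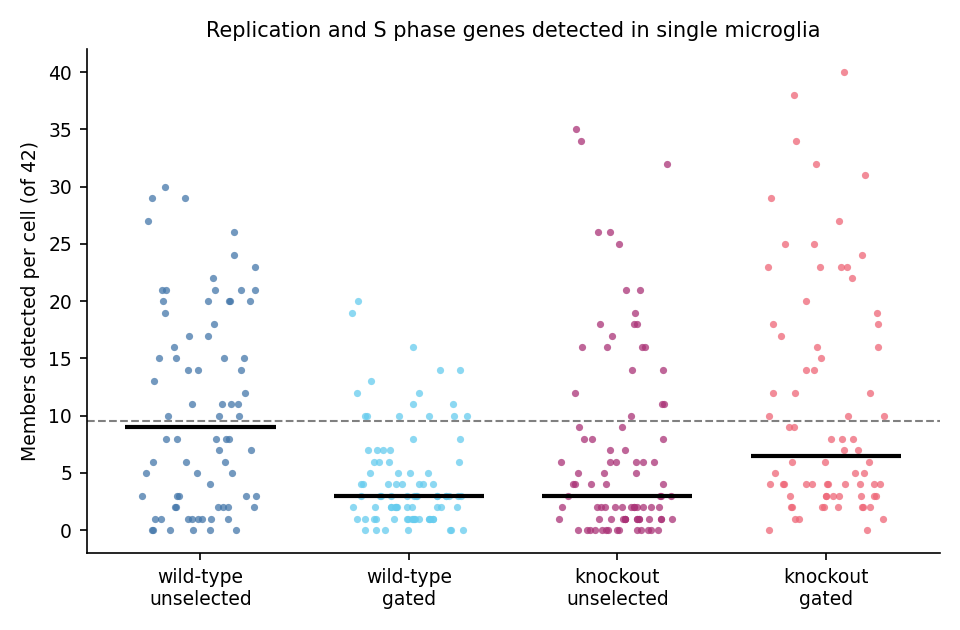
Number of the 42 members detected in each passing cell (vertical axis, cells thinned to 100000 gene counts) in the 4 groups, with points for cells spread sideways at random, black lines for group medians (9, 3, 3 and 6.5) and a dashed line between 9 and 10 members. The wild-type gated cells end at 20 members, while the other 3 groups reach 30 or more.

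Cells with many members also had more detected genes of every kind. Over the cells of a group, the number of members correlated with the number of detected genes (both after thinning) at r = 0.76 (78 cells) and 0.53 (90 cells) in the unselected and gated wild type, and at 0.63 (90 cells) and 0.61 (76 cells) in the knockout. These are descriptions over cells that share a plate. When only cells with 2855 to 3410 detected genes were kept, the shares with 10 or more members were 3 of 6 (50.0%), 2 of 12 (16.7%), 3 of 9 (33.3%) and 2 of 14 (14.3%, interval 1.78 to 42.8%). In that range, on few cells, the knockout share was lower in gated than in unselected cells, which turns round the direction seen over all cells; the part of detected genes in the group difference was not tested. Without cells with 3 or more border macrophage markers the shares were 49.4%, 13.7%, 24.7% and 45.6%, which is the same order of groups.

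The 42 members were carried mainly by the cells above the threshold, partly because these were chosen by the same genes. Cells with 10 or more members held 83.7% (unselected) and 57.5% (gated) of all member counts in wild-type cells, and 75.6% and 84.1% in knockout cells. No single cell held more than 10.8% of a group's member counts. In these cells the members summed to 5349, 3159, 7380 and 3284 CPM, against 1135, 496, 928 and 450 CPM in the remaining cells of each group. Over all cells the sums were 3335, 963, 2740 and 1644 CPM.

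Levels relative to gene counts and to spike-ins gave different orders. The median cell with 10 or more members had 4640 (unselected) or 2205 (gated) CPM of members in the wild type, and 7093 or 2408 CPM in the knockout. Per spike-in count the same medians were 0.118, 0.108, 0.147 and 0.138 member counts. Unselected cells were thus 2-fold or more above gated cells of their genotype in CPM, while the medians per spike-in count lay close together. Both measures spread widely within a group, for example from 383 to 8705 CPM among the 31 knockout gated cells.

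**Figure D2:**
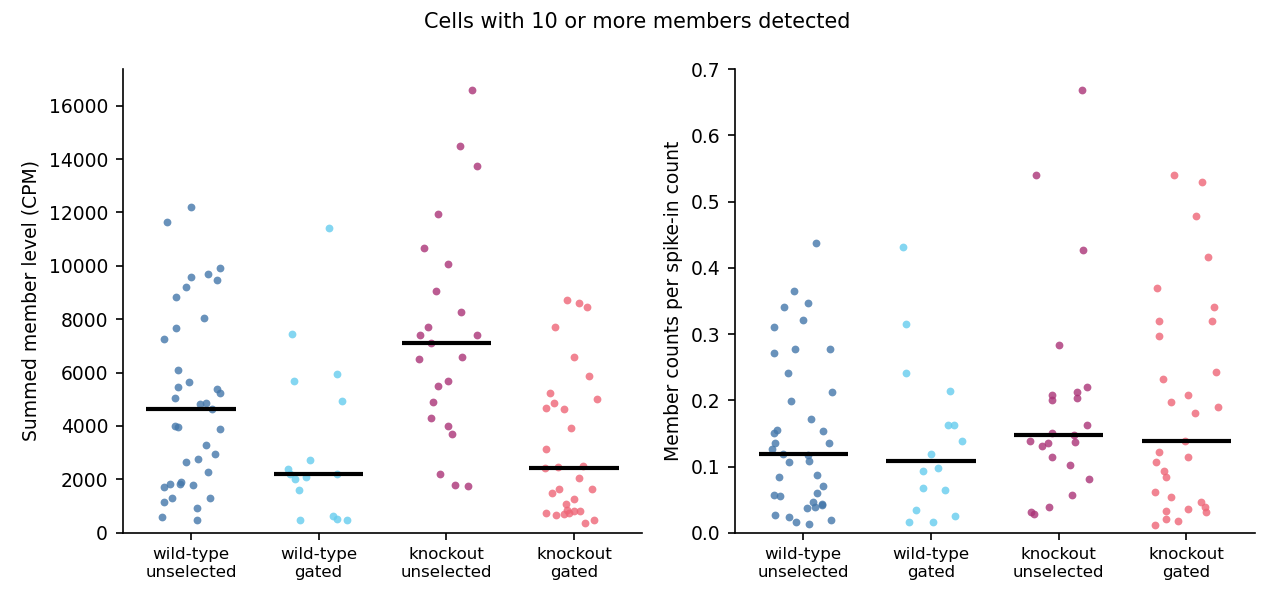
Summed level of the 42 members in each cell with 10 or more members detected, in CPM (left) and as member counts per spike-in count (right), in the 4 groups, with points for cells spread sideways at random and lines for medians. Medians run from 2205 to 7093 CPM on the left, with both gated groups low, and from 0.108 to 0.147 per spike-in count on the right.

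Genes outside the 42 also differed between these cells and the rest. Of 50 other replication genes, the median number detected was 15 in wild-type unselected cells with 10 or more members and 3 in the rest. The gated wild type had 10 against 5, and knockout cells had 12 against 3 (unselected) and 22 against 6 (gated). Top2a, the topoisomerase that untangles finished chromosomes, was detected in 21 of 39 against 3 of 39 wild-type unselected cells and in 3 of 16 against 5 of 74 wild-type gated cells. In knockout cells it was 15 of 23 against 12 of 67 unselected cells, and 23 of 31 (74.2%) against 0 of 45 gated cells, where the exact interval reaches 7.87%. Mki67, which coats mitotic chromosomes and marks dividing cells, was detected in 53.8% against 23.1%, 31.3% against 17.6%, 52.2% against 23.9% and 71% against 8.89% of cells in the 4 groups. Igf1, outside the cell cycle lists, was in 51.3% against 23.1%, 87.5% against 85.1%, 30.4% against 28.4% and 100% against 95.6% of cells. Wild-type unselected cells above the threshold had a median of 2772 detected genes after thinning, against 1739 in the rest. The part of detected genes in all these differences was not tested. Summed microglia markers had similar medians above and below the threshold. Examples were 47684 and 44481 CPM in wild-type unselected and 21800 and 23540 CPM in knockout gated cells.

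Replication genes and the genes of G2 and mitosis (G2/M) were not always found in the same cells. With 5 of 28 G2/M genes as a second threshold, 19 wild-type unselected cells passed both, 20 had the members alone, 5 had G2/M genes alone and 34 had neither. The corresponding counts were 3, 13, 9 and 65 for the gated wild type. In the knockout they were 14, 9, 13 and 54 for unselected and 22, 9, 2 and 43 for gated cells. Of the cells with 10 or more members, 22 of 31 knockout gated cells thus also had G2/M genes, but 3 of 16 wild-type gated cells did. The number of members and of G2/M genes correlated at r = 0.56, 0.19, 0.35 and 0.80 over the 78, 90, 90 and 76 cells, a description over cells that share a plate and differ in detected genes. The median cell with G2/M genes alone had 657, 359, 1118 and 1235 CPM of members, against 528, 409, 580 and 332 CPM in cells with neither. It was thus lower only in the gated wild type, where the number of members was 3 against 2. No cycle phase was assigned to a cell from these counts.

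**Figure D3:**
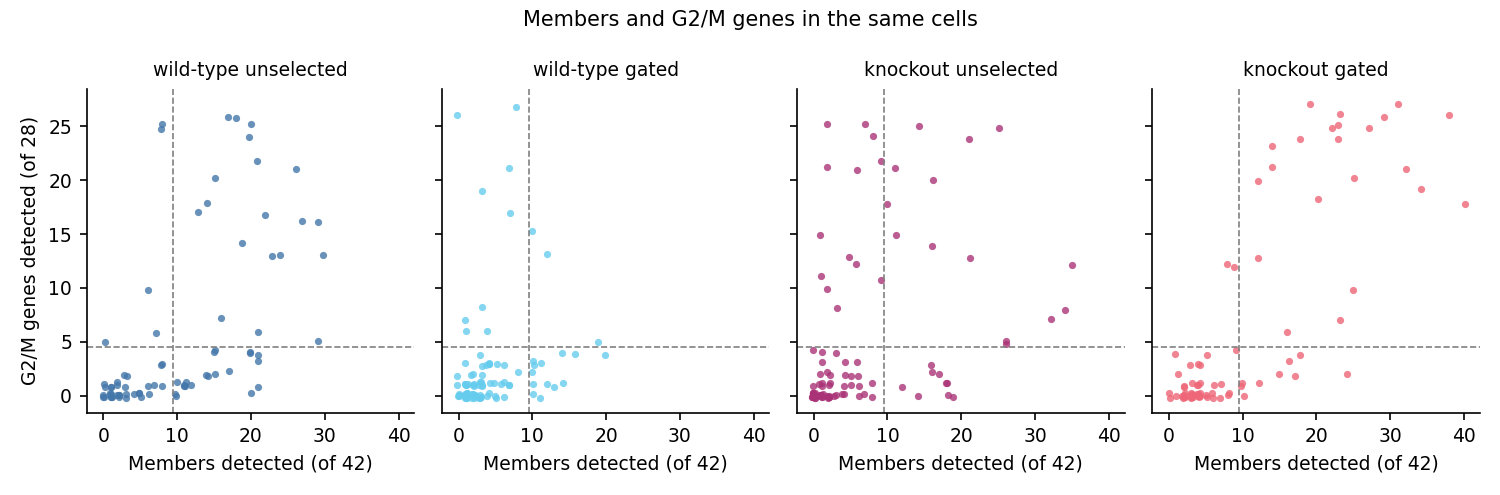
Number of G2/M genes detected (of 28, vertical axis) against the number of members detected (of 42, horizontal axis) in each passing cell, 1 panel per group, with points moved slightly at random so that they do not hide each other and dashed lines at the thresholds of 10 members and 5 G2/M genes. Knockout gated cells lie mostly at the lower left (43) or upper right (22), whereas 13 wild-type gated cells lie at the lower right and 9 at the upper left.

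Which members made up the count differed by role. In cells with 10 or more members, the median number of the 6 MCM genes was 4, 3, 4 and 4, and at least 1 was detected in every such cell of 3 groups and in 30 of 31 knockout gated cells. Mcm3 was detected in 32 of 39, 11 of 16, 17 of 23 and 27 of 31 of them, and Rrm1, the large subunit of the enzyme that makes deoxyribonucleotides, in 28, 13, 19 and 27. Licensing genes were rare: none of Orc1, Cdc6 and Cdt1 was detected in 24 of 39, 15 of 16, 9 of 23 and 18 of 31 cells. The G1/S control genes E2f1, Ccne1, Ccne2, Tcf19 and Usp1 were all undetected in 6 of 39, 13 of 16, 4 of 23 and 6 of 31 cells. The GINS subunit Gins2, in contrast, was found in 13 of the 16 wild-type gated cells and in 13 of 39, 9 of 23 and 16 of 31 cells of the other groups. The wild-type gated cells also had fewer members in all (median 11.5, against 18, 18 and 20), and the part of this in the missing roles was not tested.

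**Figure D4:**
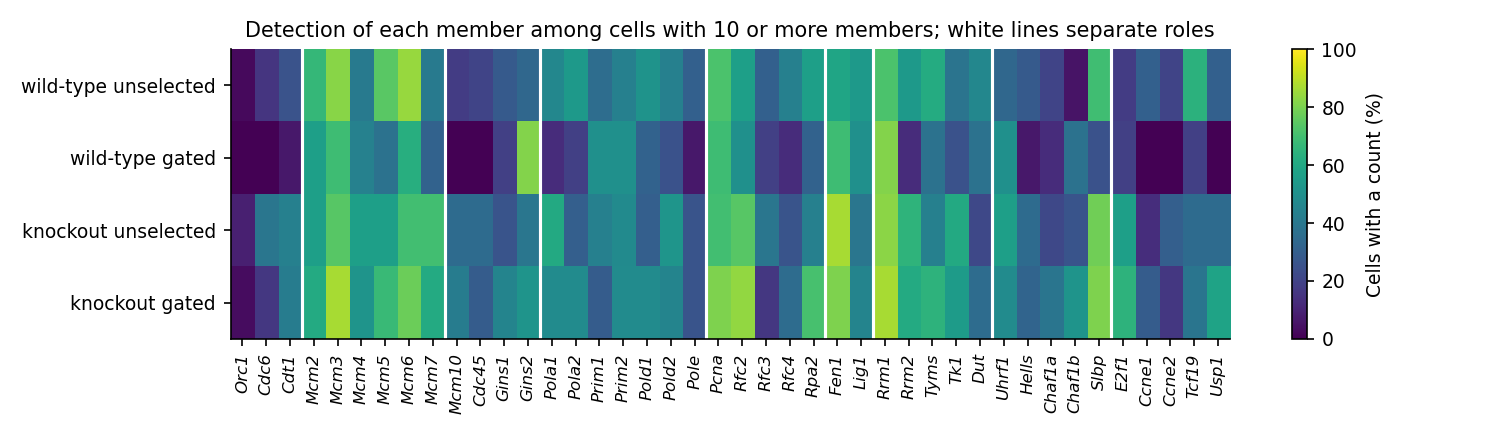
Share of cells (colour, 0 to 100%) in which each member (horizontal axis, ordered by role, with white lines between roles) had at least 1 count, among cells with 10 or more members of each group (39, 16, 23 and 31 cells from top to bottom). Mcm3, Rrm1 and Pcna are bright in all 4 groups, and Orc1, Cdc6, Cdc45, Mcm10, Ccne1, Ccne2 and Usp1 are at 0 in the wild-type gated cells.

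Group levels of single members were compared next, from counts summed over all passing cells, as log2 differences of CPM + 1. A member was called higher or lower where it differed by 2-fold or more and the mean over cells had the same sign; this rule of size is no test. Of all genes, 10554 reached 5 CPM in a group, among them all 42 members. A second scaling, by the spike-in RNAs, moved the median of all genes and is given for each comparison and within the roles. In such sums, fewer cells with the RNA and less RNA per cell cannot be told apart, which is why the shares of cells stand above. For single members below, numbers of cells count cells with any count before thinning, while percentages of cells are after thinning. The numbers therefore depend on depth, which differed between the plates.

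The gate in wild-type cells went with the largest difference. Of the 42 members, 33 were at least 2-fold lower in gated than in unselected cells and 1 was higher, against 19.9% lower and 15.2% higher of all genes. The median member was at −1.89 on the log2 scale and the median gene at −0.12. All 6 MCM genes and all 5 nucleotide supply genes were at least 2-fold lower, as were 6 of 7 polymerase and primase genes. The exception on the higher side was Chaf1b, a subunit of the chromatin assembly factor, at 4.82 CPM in unselected and 18.6 in gated cells, with 54.8% of the gated counts in 1 cell. Scaling on spike-ins moved the all-gene median to 0.32 and the member median to −1.49. When the cells with 10 or more members were left out, 36 members reached 5 CPM. Their median was −0.33, with 16 lower and 7 higher. The all-gene median was 0.00 there, and the share of all genes called was not computed.

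In knockout cells the gate difference was smaller and depended on the scale. There 15 members were at least 2-fold lower and 1 was higher in gated cells, against 22% lower and 12.4% higher of all genes. The median member was at −0.62 and the median gene at −0.26, and under spike-in scaling the member median turned to 0.71 while the all-gene median went to 1.01. On both scales the members thus lay below the median gene. Spike-in scaling changed the direction of 26 of the 42 members, among them Cdc45, Prim2, Pold2, Rrm2 and Tk1 of the 15. Mcm4, Prim1 and Pole were lowest, at −2.47, −2.22 and −1.87, and Chaf1a, another chromatin assembly subunit, was highest at 1.73. The share of cells with 10 or more members ran the other way (25.6% unselected, 40.8% gated), while the CPM in those cells was lower in the gated group.

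Among unselected cells the share with 10 or more members was 50.0% in the wild type and 25.6% in the knockout, while few members passed 2-fold by gene counts. In knockout cells 8 members were at least 2-fold lower (Tcf19, Pola2, Dut, Chaf1a, Rfc4, Gins2, Usp1 and Mcm5) and 3 higher (Uhrf1, Orc1 and Chaf1b), against 13.3% lower and 16.5% higher of all genes. The median member was at −0.30 and the median gene at 0.05, with −0.79 and −0.38 under spike-in scaling, where 16 members were lower. Uhrf1, which recruits the DNA methyltransferase to newly copied DNA, stood at 36.1 CPM in wild-type and 110.1 CPM in knockout unselected cells. Orc1 was near the measuring limit, at 1.31 and 6.54 CPM.

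Among gated cells the members were higher in the knockout. Here 16 were at least 2-fold higher and 2 lower (Prim1 and Gins2), against 11.4% higher and 12% lower (1275 of 10554) of all genes. The median member was at 0.83 and the median gene at 0.00, and spike-in scaling gave 1.23 and 0.35. The 16 included 4 of 5 G1/S control genes, 3 of 4 helicase activation genes and 3 of 5 chromatin and histone genes, but 1 of 6 MCM genes. Without the cells with 10 or more members, 36 members reached 5 CPM. Their median was −0.041, with 7 higher and 13 lower. The all-gene median was −0.063 there, and the share of all genes called was not computed. The comparisons within a gate and within a genotype share groups: the low wild-type gated plate enters both the first and this one.

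**Figure D5:**
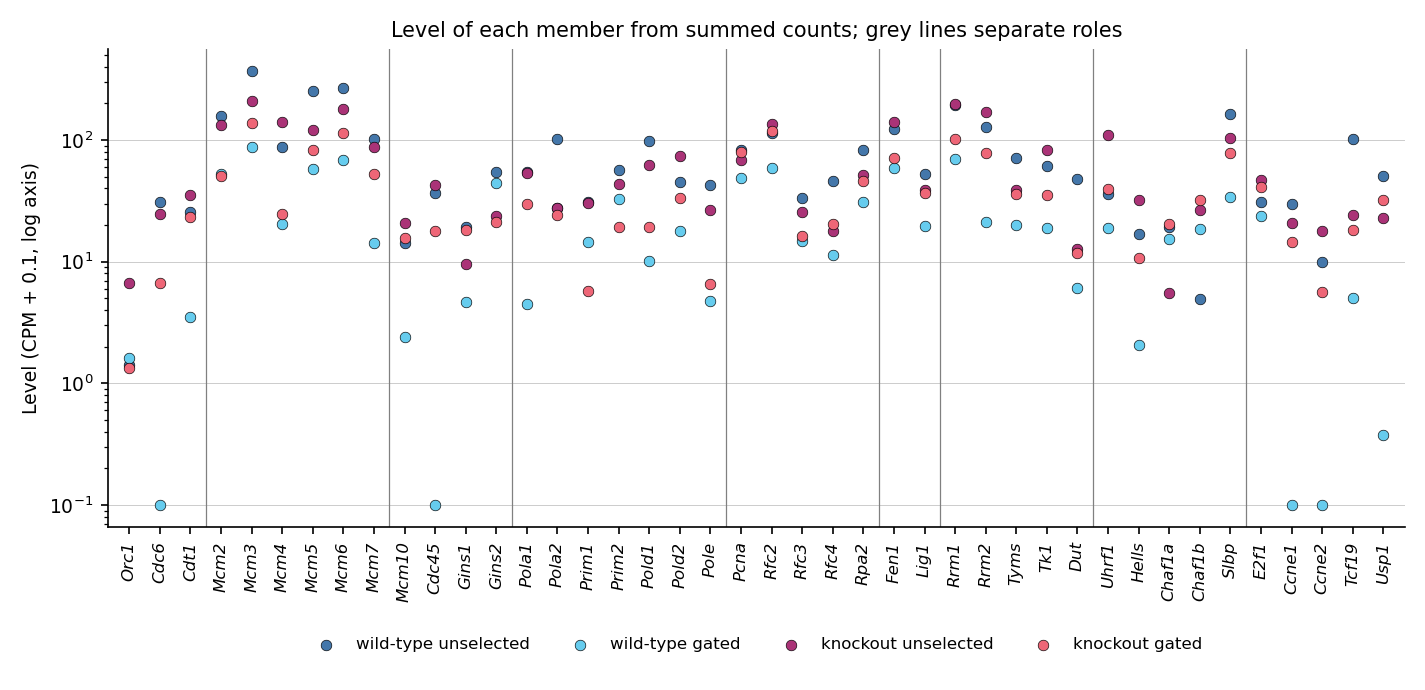
Level of each member from counts summed over all passing cells (vertical log axis, CPM + 0.1) in the 4 groups, with members ordered by role and grey lines between roles. Wild-type gated cells have the lowest point for most members, and Cdc6, Cdc45, Ccne1 and Ccne2 lie on the bottom line there because they had 0 counts.

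Licensing genes were the lowest role per kilobase of exon. Cdt1, which carries the helicase to origins, stood at 25.5 CPM (unselected) and 3.40 CPM (gated) in wild-type cells and at 35.2 and 23.2 CPM in knockout cells. Cdc6, an ATPase of the same loading step, was at 30.95, 0, 24.5 and 6.58 CPM and was found in 7, 0, 9 and 7 cells before thinning. With 0 counts in the wild-type gated group, Cdc6 was at least 555-fold lower there than in unselected wild-type cells, taking 3 counts over the whole group as the floor. By the same floor it was at least 118-fold higher with the knockout in gated cells. Both bounds cover counting error of the summed reads and not the sampling of cells, few of which had Cdc6. Orc1, the large subunit of the origin recognition complex, was at 1.31, 1.51, 6.54 and 1.25 CPM from 3 to 5 cells a group. A single cell held 51.5% of Cdc6 counts in knockout gated and 77.7% of Orc1 counts in knockout unselected cells, whereas Cdt1 was carried by 18, 11, 13 and 22 cells. The median of the role with the gate was −2.59 in wild-type and −1.75 in knockout cells, and −2.18 and −0.52 under spike-in scaling, where Cdt1 turned to 0.71 in knockout cells.

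The 6 subunits of the MCM helicase, which unwinds the double strand, had the highest mean level per kilobase of the 9 roles. Mcm3 (ENSMUSG00000041859.10, mm10 chromosome 1, 20802968 to 20820312, minus strand) had the highest mean level per kilobase of all 42. In the wild type it stood at 368.96 CPM (exact Poisson interval 363 to 375) in unselected and 87.2 CPM (84.7 to 89.7) in gated cells. In the knockout it stood at 209.7 CPM (206.0 to 213.5) and 137 CPM (134 to 140.4). These intervals cover counting error of the summed reads only, not the spread over cells or mice. Mcm3 was detected in 53.8%, 25.6%, 34.4% and 53.9% of cells. Its gate difference was −2.07 in wild-type and −0.61 in knockout cells. Mcm6 (ENSMUSG00000026355.11, chromosome 1, 128331590 to 128359664, minus strand) followed the same order, at 265, 67.9, 181 and 113 CPM. Mcm4 departed from it, with 87.2, 20.3, 141 and 24.7 CPM, so that knockout unselected cells were highest and the 2 gated groups were close. For all 6 subunits the wild-type gate difference lay between −2.77 (Mcm7) and −1.55 (Mcm2), and between −2.47 and −0.55 in knockout cells. Those knockout differences had a median of −0.70, which spike-in scaling turned to 0.62.

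Among the genes that activate the helicase, Cdc45 and Mcm10 were found in few cells and Gins2 in more. Cdc45, a fixed part of the running helicase, was at 36.7, 0, 42.4 and 17.9 CPM in the 4 groups, from 12, 0, 12 and 9 cells. Its 0 counts make it at least 658-fold lower in wild-type gated than in wild-type unselected cells. Knockout gated cells were at least 321-fold above the wild-type gated group. These bounds, too, cover counting error of the summed reads and not the sampling of cells. Gins1 and Gins2 belong to the 4-subunit GINS complex but did not share a pattern: Gins1 was at 19.2, 4.58, 9.54 and 18.1 CPM, Gins2 at 53.99, 44.4, 23.7 and 21.1. By gene counts Gins2 was thus nearly level across the gate (−0.28 and −0.16) and about 2-fold lower in both knockout groups (−1.16 and −1.04). Under spike-in scaling its gate differences were 0.18 and 1.12 and its knockout differences −1.61 and −0.68. The role's knockout gate median turned from −0.27 to 1.01. Mcm10, a helicase cofactor that is not part of the ring, had 98.4% of its wild-type gated counts in 1 cell.

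By gene counts all 7 polymerase and primase genes were lower in gated than in unselected cells of both genotypes. Pold1, the catalytic subunit of polymerase delta, stood at 97.6, 9.97, 62.1 and 19.2 CPM, and its partner Pold2 at 45.5, 17.9, 74.3 and 33.5 CPM. Gate differences were −3.17 and −1.65 for Pold1 and −1.30 and −1.13 for Pold2 in wild-type and knockout cells. Prim1, the subunit that lays down RNA primers, was at 31.1, 14.3, 30.1 and 5.68 CPM, so it was lowest in knockout gated cells, where most members were not. Prim2, its regulatory partner, was at 57.1, 32.4, 43.4 and 19.3 CPM. Pola2, which ties primase to polymerase alpha, was high in 1 group alone, at 101, 27.4, 27.4 and 24.02 CPM. Pole, the leading-strand polymerase, was at 42.9, 4.67, 26.3 and 6.50 CPM, and all its wild-type gated counts came from 1 cell. Of these 7 genes, 5 were at least 2-fold lower with the gate in knockout cells, but under spike-in scaling their median turned from −1.13 to 0.16.

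Pcna, the sliding clamp, differed little between groups by gene counts. Pcna (ENSMUSG00000027342.14, chromosome 2, 132249162 to 132253314, minus strand) was at 82.1, 48.6, 67.99 and 79.6 CPM and was detected in 44.9%, 32.2%, 27.8% and 53.9% of cells. No comparison by gene counts reached 2-fold, but under spike-in scaling the gate in knockout cells (1.54) and the knockout in gated cells (1.08) did. Pcna was also found in 24.3% of wild-type gated and 35.6% of knockout gated cells with fewer than 10 members. Pcna takes part in DNA repair as well as replication. Rpa2, which coats single-stranded DNA, stood at 82.2, 30.8, 51.3 and 46.1 CPM. Of the 5 genes in the role, 3 were at least 2-fold lower with the gate in wild-type cells and none in knockout cells, where the median was −0.15 by gene counts, 0.12 with TMM factors and 1.16 by spike-ins.

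Fen1, the nuclease that trims the flaps between Okazaki fragments, came second only to Mcm3 in mean level per kilobase, at 122, 58.9, 139 and 71.4 CPM. Lig1, the ligase that seals the nicks, stood at 51.96, 19.5, 39.0 and 36.3 CPM. By gene counts both were at least 2-fold lower with the gate in wild-type cells and neither was in knockout cells. Under spike-in scaling neither reached 2-fold in wild-type cells (Fen1 −0.58, Lig1 −0.92), and in knockout cells both turned higher (0.37 and 1.20).

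Ribonucleotide reductase genes stood out among the nucleotide genes. Rrm2, its small subunit and the limiting one in S phase, was at 128 CPM (unselected) and 21.0 CPM (gated) in wild-type cells, and at 170.4 and 77.9 CPM in knockout cells. Counts of Rrm2 were found in 29, 4, 25 and 25 cells, so the wild-type gated value rests on 4 cells, 1 of them with 54.8% of it. Rrm1, its large subunit, stood at 192, 70.0, 196 and 102 CPM and was found in 32, 30, 35 and 38 cells, also before thinning. The subunits therefore differed in how many wild-type gated cells had them. Dut, which keeps uracil out of DNA, was at 47.4, 6.01, 12.7 and 11.7 CPM, highest in wild-type unselected cells. Over the 5 genes the knockout gate median was −0.94 and turned to 0.39 under spike-in scaling.

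Chromatin and histone genes were mixed. Slbp, which binds the stem-loop of histone mRNA, was at 164, 33.7, 103 and 77.6 CPM and followed the MCM order. Uhrf1 was at 36.1, 18.9, 110.1 and 39.3 CPM, with knockout above wild type in both gates (1.58 and 1.02). The chromatin assembly subunits differed from both and from each other: Chaf1a was at 19.1, 15.2, 5.48 and 20.5 CPM and Chaf1b at 4.82, 18.6, 26.6 and 31.9. Chaf1a had 79.2% of its wild-type gated counts in 1 cell and Chaf1b 61.2% of its wild-type unselected counts, so their differences lean on single cells. Under spike-in scaling Uhrf1 stayed more than 2-fold higher in knockout cells of both gates, and Chaf1a turned from −0.31 to 0.13 with the gate in wild-type cells.

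G1/S control genes had the largest median differences of the 9 roles with the gate in wild-type cells (−4.11) and with the knockout in gated cells (2.70). Tcf19, an E2F target with a chromatin-binding domain, was at 101, 4.91, 24.3 and 18.1 CPM, so the gate difference was large in wild-type cells and −0.40 in knockout cells (0.87 under spike-in scaling). The role's wild-type gate and gated knockout medians were −3.69 and 3.26 on that scale. Usp1, a deubiquitinase of Pcna, was at 50.3, 0.279, 22.9 and 31.8 CPM, and the wild-type gated value came from 1 of 90 cells. Ccne1 and Ccne2, the cyclins E that push cells into S phase, were at 29.5, 0, 20.6 and 14.5 CPM and at 9.83, 0, 17.9 and 5.49 CPM. Against the floor of 3 counts, Ccne1 was at least 528-fold and Ccne2 at least 176-fold lower in wild-type gated than in wild-type unselected cells. Knockout gated cells were at least 260-fold (Ccne1) and 98.3-fold (Ccne2) above the wild-type gated group. E2f1, the transcription factor itself, was an exception at 30.6, 23.8, 47.2 and 40.8 CPM, with no comparison by gene counts past 2-fold. Under spike-in scaling E2f1 was past it with the gate in knockout cells (1.099) and with the knockout in gated cells (1.13). Such bounds cover counting error, not the sampling of cells, and the cells with Ccne1 numbered 20, 0, 3 and 18.

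Related genes outside the set were read from lists of the same pathway, which were also chosen with earlier results of these data known. Of 49 measured other replication genes, 28 were at least 2-fold lower and 0 higher with the gate in wild-type cells, 10 lower and 4 higher with the gate in knockout cells, 7 lower and 1 higher with the knockout in unselected cells, and 0 lower and 19 higher with the knockout in gated cells. Their medians of −1.33, −0.47, −0.04 and 0.73 lay near those of the members (−1.89, −0.62, −0.30 and 0.83), and the second turned to 0.76 under spike-in scaling. With the gate in wild-type cells 57.1% of these genes were lower, against 19.9% of all genes. With the knockout in gated cells 38.8% were higher, against 11.4%. The lower shares lay near all genes with the gate in knockout cells (20.4% against 22%) and with the knockout in unselected cells (14.3% against 13.3%). The higher shares there were below all genes (8.16% against 12.4% and 2.04% against 16.5%). Timeless, which holds the replication fork together, was at 68.1, 0.651, 26.4 and 20.1 CPM. E2f7, an E2F repressor, was at 31.5, 0, 2.25 and 0.654 CPM. The helicase gene Mcm8 had 0 counts in knockout unselected cells and 11.5 to 14.3 CPM in the other groups. Cdc7, the kinase that fires origins, stood at 15.6, 0.0186, 22.1 and 0.951 CPM.

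G2/M genes behaved differently from the members in the genotype comparison of unselected cells. Of 28 measured, 9 were at least 2-fold higher and 0 lower in knockout unselected cells, with a median of 0.66 (0.17 under spike-in scaling), where the member median was −0.30. With the gate, 16 were lower and 2 higher in wild-type cells and 22 lower and 1 higher in knockout cells (medians −1.13 and −1.25, the second 0.07 under spike-in scaling). With the knockout in gated cells, 10 were higher and 1 lower, with a median of 0.62. Of the G2/M genes 32.1% were thus higher in knockout unselected cells, against 16.5% of all genes. Their lower shares with the gate were 57.1% against 19.9% in wild-type cells and 78.6% against 22% in knockout cells. With the knockout in gated cells 35.7% were higher, against 11.4% of all genes. Mki67 was at 176, 78.9, 345 and 143 CPM and Top2a at 127, 16.5, 225 and 109 CPM. Cdc20, an activator of the complex that ends mitosis, was at 40.1, 39.9, 208 and 55.3 CPM, and the spindle motor Kif11 at 61.1, 2.01, 94.7 and 35.6 CPM. Of 18 measured genes that control G1, 5 were lower and 1 higher with the gate in wild-type cells. With the gate in knockout cells 4 were lower and 1 higher. With the knockout 0 were lower and 2 higher in unselected cells, and 1 lower and 4 higher in gated cells. Their lower shares with the gate were 27.8% against 19.9% of all genes in wild-type cells and 22.2% against 22% in knockout cells. With the knockout in gated cells 22.2% were higher, against 11.4% of all genes. The other shares of G1 genes lay below those of all genes. The G1 median with the gate in knockout cells was −0.36 and turned to 0.89 under spike-in scaling. With the knockout in unselected cells the G1 median was 0.32 and turned to −0.17. Ccnd2, a cyclin D, was found mainly in wild-type gated cells, at 0, 21.9, 1.88 and 0.911 CPM, with 69.1% of the 21.9 in 1 cell.

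The comparisons were repeated within the cells that had 10 or more members. The median member was at −1.11 with the gate in both genotypes, at 0.55 with the knockout in unselected cells and at 0.38 with the knockout in gated cells. In cells with fewer members the medians were −0.21 and −0.71 with the gate and 0.01 and −0.03 with the knockout. These cells were chosen by the members themselves, so the values describe them and support nothing further.

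Most pairs of members correlated above 0 across cells, least so in the wild-type gated group. It was 733 of 861 and 463 of 703 pairs in the wild type, and 825 and 848 of 861 in the knockout, unselected before gated. Over the 861 pairs in a group, the median correlation of log2 levels after thinning was 0.19 in unselected wild-type cells and 0.29 (unselected) and 0.34 (gated) in knockout cells, and over the 703 pairs of the 38 members with counts in wild-type gated cells it was 0.09. The highest pair was Fen1 with Rrm2 (0.62), E2f1 with Tcf19 (0.64), Gins2 with Ccne2 (0.75), and Mcm5 with Mcm6 (0.81), in the order of groups used above. Cells of a plate share preparation and differ in detected genes, so these values carry no test. Pairs of other genes were not set beside them.

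The exons of 10 members overlap those of another coding gene: Ccne2, Cdc45, Chaf1a, Fen1, Gins2, Lig1, Mcm7, Rfc2, Rfc4 and Tk1. The other genes are Ints8, Ufd1, Ubxn6, Tmem258, Gse1, Zswim9, Ap4m1 and Cops6 (both with Mcm7), Lat2, Eif4a2 and Afmid. The sources used here do not say whether the counting used strand. How reads in the shared stretches were counted is therefore not known.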

How the data were processed

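Raw read counts for each gene and cell were deposited by the authors in 1 table. The submitters' processing notes name HTSeq, Picard, STAR 2.5.3a and Trim Galore 0.4.3, with build mm10; the sources used here give neither the gene annotation nor the use of strand. The 334 cells that met the labels' 3 quality criteria were used, with 157653 to 1051282 gene counts each, and the 92 spike-in RNAs stayed out of library sizes. No doublets were called, as wells were sorted to hold 1 cell.

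Counts were summed over a group and divided by summed gene counts (CPM), with exact Poisson intervals at 95% that cover counting error only. Differences are log2 ratios of CPM + 1, which understate changes of low genes. Shares have Clopper-Pearson intervals. For detection each cell was thinned to 100000 gene counts (0 cells lay below). The calling rule and the thinning were run on simulated counts with no spread between cells beyond counting error and with changes larger than 2-fold. That run does not cover reads concentrated in single cells, as seen here. No model across genes was fitted, since each group is 1 sample, and edgeR 4.0.16 and DESeq2 1.42.0 gave scaling factors only. Python 3.11.15, NumPy 2.4.6, pandas 2.3.3, SciPy 1.17.1 and R 4.3.3 were used. Levels per kilobase and coordinates use GENCODE M21 gene models, matched by symbol.

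The members and lists were chosen with earlier results of these data known. Named were the 2 members of each role with the highest level per kilobase (all in roles of 2 or 3), the 3 highest and 3 lowest members of each comparison, up to 2 genes of each other list per comparison, and Mki67 and Top2a; 1 gene that this rule names is not reported here. Other members are named where a count of them is small or a single cell carries them. Alternatives were other scalings, pseudocounts, level filters and thresholds, all cells, and leaving out sets of cells.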

Additional observations from a re-analysis of the deposited data

Results flagged for a closer look

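For 2 members the knockout went with opposite differences in the 2 gates, each at least 2-fold. Tcf19 was at −2.02 on the log2 scale in unselected cells (101 CPM in wild-type and 24.3 in knockout cells) and at 1.69 in gated cells (4.91 and 18.1 CPM). Usp1 was at −1.10 in unselected cells (50.3 and 22.9 CPM) and at 4.68 in gated cells (0.279 and 31.8 CPM), where the wild-type value came from 1 cell. The difference between the gates was not tested, since each group is 1 sample.

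Among the 35 cells that missed a quality criterion, 15 had at least 100000 gene counts, and 7 of these had 10 or more members detected. At that depth they were 5 of 7 unselected and 0 of 2 gated wild-type cells, and 1 of 2 unselected and 1 of 4 gated knockout cells. With them the shares of cells with 10 or more members were 51.8% and 17.4% in the wild type and 26.1% and 40.0% in the knockout, unselected before gated.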

How the results depend on the processing

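Each alternative was compared with the main value over 4 member medians, 8 counts of members and 4 shares of cells. Spike-in scaling turned the median of the gate in knockout cells to 0.71 (14 members higher, 1 lower, over the 41 members that reached 5 CPM on that scale). It moved the genotype median to −0.79 in unselected cells (16 lower) and to 1.23 in gated cells (28 higher, 0 lower). TMM factors gave −0.36 for the gate in knockout cells, with 2 members higher, as did median-of-ratios factors, and 1 lower for the genotype in gated cells. A pseudocount of 5 CPM gave 0 lower there.

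Without the cells with 10 or more members, the medians were −0.33 (7 higher, 16 lower) for the gate in wild-type cells, 0.0089 (9 higher) for the genotype in unselected and −0.041 (7 higher, 13 lower) in gated cells; 3 were higher with the gate in knockout cells. In cells with 2855 to 3410 detected genes, a range that was widened because the quartile ranges of the groups did not overlap, 6 and 5 members were higher with the gate in wild-type and knockout cells. The genotype then gave 12 higher and 14 lower in unselected cells, and a median of 0.51 with 10 lower in gated cells. Without cells with 3 or more border macrophage markers, 2 were higher with the gate in knockout cells and 1 lower with the genotype in gated cells. Members that reached 5 CPM numbered 36 in the first of these settings, 38 in the range of detected genes and 42 in the last. The share of all genes called was not computed for these settings.

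At 5 members the shares of cells were 66.7%, 33.3%, 43.3% and 57.9%, with wild-type cells first and unselected before gated. At 15 members they were 34.6% and 3.33% in wild-type cells. When 3 counts were required for detection the knockout shares were 23.3% (unselected) and 26.3% (gated), close to each other. In the range of detected genes above they were 33.3% and 14.3%, the reverse of the order over all cells. The cause of these changes was not tested. Over 20 thinning draws, added after seeing the data together with the share without border macrophage markers and the run without 1 cell lacking microglia markers, shares were 47.4 to 52.6%, 14.4 to 18.9%, 26.7 to 27.8% and 39.5 to 42.1%, so the 25.6% given for unselected knockout cells lies below its range (23 cells against 24 to 25).

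No passing cell lay below the thinning depth of 100000 gene counts. Single members often rested on few cells: 9 members had over 50% of their wild-type gated counts in 1 cell, against 2 in unselected wild-type cells and 2 (unselected) and 4 (gated) in knockout cells. Leaving out a replicate was not done, because each group is 1 sample. No paired analysis was possible because the replicate numbers only name cells and the result comes from no test.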
